A study of Mus musculus with 9 samples.

Results

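Liver gene expression after the combined loss of Mttp and Fabp1 was described by setting 3 double-knockout (DKO) libraries against 3 control libraries, 6 of the 9 libraries in the series. Of the 41388 genes in each deposited table, the 13872 at 0.5 CPM or more in at least 3 of these 6 libraries were taken (CPM is a read count scaled to the size of its library). The animals were male mice congenic on C57BL/6J. Each received 25 mg per kg of diethylnitrosamine (DEN), a carcinogen that forms DNA adducts in hepatocytes, by intraperitoneal injection at 14 days of age, ate standard chow, and gave liver at 6 months. Control mice carried floxed Mttp (Mttp f/f in the labels, Mttp fl/fl in the design text). DKO mice carried the liver-specific Mttp deletion together with a germline deletion of Fabp1, a germline deletion being carried by every tissue. The remaining group, MttpLKO, carried the liver-specific Mttp deletion with Fabp1 intact. It took no part in the DKO against control contrast other than through the shared estimate of spread and the scaling of library sizes, both computed over all 9 libraries. Its values are given beside the others, with a second test, DKO against MttpLKO, for genes that are named. Every library was a pool of RNA from 3 mice, with 3 pools per genotype.

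Microsomal triglyceride transfer protein, the product of Mttp, loads triglyceride onto apolipoprotein B in the endoplasmic reticulum (ER), the step that starts very low density lipoprotein (VLDL) assembly. Without it hepatocytes export little triglyceride and store it in droplets. Liver fatty acid-binding protein, the product of Fabp1, is among the most abundant proteins of the hepatocyte cytosol and carries fatty acids to sites of oxidation, esterification and nuclear receptor signalling. No library had Fabp1 loss alone, so the share of either deletion in a DKO difference cannot be told apart from this contrast. The driver of the liver-specific deletion is not given in the labels. The labels say liver and do not say whether tumour or non-tumour tissue was taken, and in bulk RNA fewer cells of a type and less RNA per cell cannot be told apart.

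Total counts were 24995426 to 27080442 in control, 26362408 to 27918197 in MttpLKO and 23268389 to 23429588 in DKO. The tissue label was checked against hepatocyte genes: Alb read 50490 to 60880 CPM in control and 35420 to 57900 CPM in DKO, and 26 of 27 listed hepatocyte genes passed the expression filter. On the leading principal component of the 6 libraries, which held 39% of the variance, controls lay between -18.4 and -16.4. DKO replicate 2 lay at 1.94, nearer to the controls than DKO replicate 1 at 17.3 and DKO replicate 3 at 32.4, so the DKO pools varied more among themselves than the controls did.

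Both targeted genes were low in every DKO library. Fabp1 read 6841, 6047 and 6217 CPM in the 3 controls, 3356, 3977 and 4999 CPM in MttpLKO, and 50.9, 68.3 and 77.5 CPM in DKO. Its DKO and control libraries were far apart, and Fabp1 fell 97.1-fold, a log2 fold change of -6.60 with an SE of 0.23 (edgeR adjusted p = 1.46e-07). Mttp read 181, 79.7 and 69.2 CPM in control, 9.71, 6.11 and 6.28 CPM in MttpLKO, and 5.86, 3.27 and 4.50 CPM in DKO. Control replicate 1 held more than double the Mttp of the other controls, and every DKO value was below every control value. Mttp fell 24.1-fold, a log2 fold change of -4.59 with an SE of 0.40 (edgeR adjusted p = 0.00051). Whole-gene counts cannot tell which exons the deletions took.

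Over all tested genes, 50 were called at an edgeR adjusted p under 0.05, 0.36% of those tested. Of these 35 were higher in DKO (0.252%) and 15 were lower (0.108%). The median log2 fold change of all genes was 0.011, and 52.0% of genes had a positive value against 48.0% with a negative one. At an unadjusted p under 0.05 there were 1621 genes (11.7%), where 694 are expected by chance. Of these, the genes higher in DKO were 6.75% of those tested and the genes lower in DKO 4.93%. All 50 called genes had DKO and control libraries that did not overlap, as did 18.5% of all genes (10.1% with DKO higher, 8.41% with DKO lower). A fold change of at least 2 was seen in 39 of the 50, and 15 of the 50 had a mean under 5 CPM in both genotypes. The share of all tested genes under 5 CPM was not computed. The calls depended on single libraries: 10 to 94 genes were called when 1 of the 9 libraries was left out, with 12 without DKO replicate 1, 59 without DKO replicate 2 and 10 without DKO replicate 3. The sign of the fold change was the same for all 50 genes in every alternative that gave a value. Fabp1, Mttp, Rpl34, Htra2, Cpe, Nt5e, Zfp949 and Tmem98 were called in all 19 alternatives, and a further 5 genes (Mrap2, Gh, Wfdc12, Erich4 and Gm11868) in all 16 in which they passed the filter. These 5 were under 0.5 CPM in every control, so they failed the filter whenever a DKO library was left out. Whether their calls depend on a single DKO pool was therefore not tested.

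**Figure D1:**
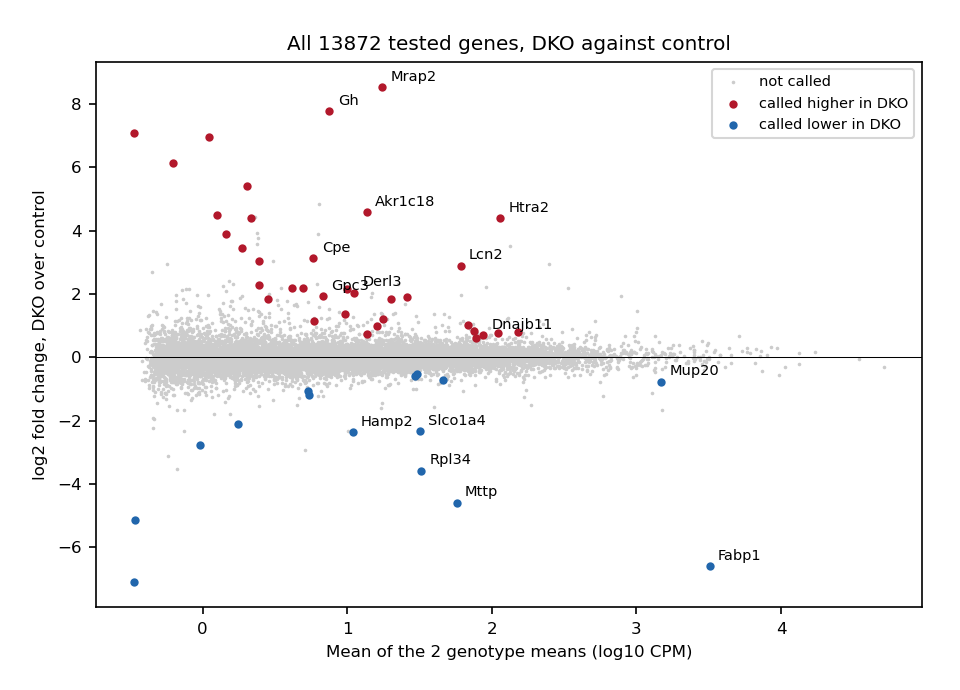
Log2 fold change of DKO over control (vertical) against the mean of both genotype means in log10 CPM (horizontal) for the 13872 tested genes, 1 point per gene. Red points are the 35 genes called higher in DKO and blue points the 15 called lower; Mrap2 and Gh are the highest points, at fitted values of 8.55 and 7.79. Fabp1 lies at -6.60 and Mttp at -4.59, and the low-expressed 9430037G07Rik (-7.11) and 1010001B22Rik (-5.14) also lie far down.

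The largest rise was in Mrap2, which encodes an accessory protein of melanocortin receptors. Mrap2 read 0.121, 0.0751 and 0.0721 CPM in control and 49.0, 14.7 and 41.1 CPM in DKO. It was nearly silent in MttpLKO too, at 0 to 0.0379 CPM, and high in all 3 DKO pools. The DKO libraries held 2468 counts against 7 in control, a ratio of 397 relative to the TMM-scaled library sizes (exact 95% interval 193 to 989, counting error only). The edgeR adjusted p was 6.57e-05 against control and 6.02e-05 against MttpLKO. Both contrasts use the same DKO libraries.

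Htra2, which encodes a serine protease of the mitochondrial intermembrane space, read 10.1, 10.2 and 10.7 CPM in control, 9.79, 9.88 and 10.3 CPM in MttpLKO, and 229, 172 and 256 CPM in DKO. The 6 libraries with intact Fabp1 lay within 1 CPM of each other, and each DKO library was many times higher. The rise over control was 21.2-fold, 4.41 on the log2 scale with an SE of 0.15 (edgeR adjusted p = 1.46e-07, and 2.27e-07 against MttpLKO). Htra2 was the called gene of the list of mitochondrial proteases and quality control, whose 31 tested members had a median log2 fold change of 0.08, or 0.046 without DKO replicate 3. The list's next smallest p belonged to Hspe1, a mitochondrial co-chaperone, at a log2 fold change of 0.31 (edgeR adjusted p = 0.385).

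Several smaller rises also set DKO apart from MttpLKO. Wfdc12, a small secreted protein with a whey acidic protein domain, read 0.162, 0.300 and 0.0721 CPM in control and 2.28, 2.80 and 3.03 CPM in DKO, a 14.9-fold rise (edgeR adjusted p = 0.00146, and 0.0129 against MttpLKO). Nt5e, the ectonucleotidase CD73 that forms adenosine outside cells, read 2.34, 3.87 and 4.69 CPM in control and 15.7, 16.7 and 16.3 CPM in DKO, and rose 4.45-fold (edgeR adjusted p = 0.00281, and 0.0149 against MttpLKO). The 3 DKO pools agreed closely on Nt5e, and all lay above the highest MttpLKO value of 6.54 CPM. The following 4 called genes were chosen after their values were seen. Zfp949, a zinc finger gene, stood at 8.74 ± 0.21 CPM in control and 31.5 ± 0.66 CPM in DKO (SD, n = 3), and rose 3.60-fold (edgeR adjusted p = 3.19e-05, and 3.71e-05 against MttpLKO). Tmem98, which encodes a transmembrane protein, went from 10.7 ± 0.42 to 21.3 ± 0.33 CPM, a rise of 2.00-fold (edgeR adjusted p = 0.00146, and 0.00101 against MttpLKO). Both genes had narrow spreads in every genotype. Dio1, the deiodinase that activates thyroid hormone in liver, went from 111 ± 10.7 CPM in control to 192 ± 23.3 CPM in DKO, a 1.73-fold rise (edgeR adjusted p = 0.022, and 0.00421 against MttpLKO). Bckdhb, a subunit of the enzyme that commits branched-chain amino acids to breakdown, went from 81.0 ± 4.33 CPM in control to 139 ± 2.87 CPM in DKO, a 1.72-fold rise (edgeR adjusted p = 0.011, and 0.0274 against MttpLKO). Without a single library the edgeR adjusted p reached 0.165 for Dio1 (control replicate 2) and 0.0864 for Bckdhb (control replicate 3).

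In another set of rises the MttpLKO libraries were high as well, and DKO did not differ from MttpLKO by the test. Gh, the growth hormone gene, whose usual site of expression is the pituitary, read 0.121, 0 and 0.0721 CPM in control, 5.43, 16.97 and 14.2 CPM in MttpLKO, and 15.5, 17.8 and 11.8 CPM in DKO. Control pools held almost none, and the ranges of the 2 knockout genotypes overlapped. DKO held 1058 counts against 5 in control, a ratio of 238 (exact 95% interval 102 to 736, counting error only; edgeR adjusted p = 0.00031, and 0.842 against MttpLKO). Hoxc8, a homeobox transcription factor gene, held 87 counts in DKO and 1 in control, a ratio of 98.0 (17.1 to 3915), with an edgeR adjusted p of 0.0124, and 0.822 against MttpLKO. Hoxc8 read 0.379 to 1.28 CPM in MttpLKO and 0.891 to 1.67 CPM in DKO. Leaving out control replicate 3 gave Hoxc8 an adjusted p of 0.0864. Hoxc8 was under 0.5 CPM in every control, so whether its call depends on a single DKO pool was not tested.

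Akr1c18, a hydroxysteroid dehydrogenase that inactivates progesterone, read 0.768, 0.938 and 1.55 CPM in control, 4.21, 7.68 and 29.5 CPM in MttpLKO, and 23.1, 28.8 and 26.9 CPM in DKO. The DKO pools were close to each other, while MttpLKO replicate 3 alone reached the DKO range. Akr1c18 rose 23.9-fold over control (edgeR adjusted p = 0.0171, 0.147 without control replicate 2, and 0.649 against MttpLKO). Cpe, the prohormone-processing enzyme carboxypeptidase E, read 1.495, 0.826 and 1.26 CPM in control, 2.28, 3.77 and 4.95 CPM in MttpLKO, and 8.84, 9.82 and 12.7 CPM in DKO. The 3 genotypes did not overlap for Cpe, which rose 8.75-fold over control (edgeR adjusted p = 0.00146, and 0.0675 against MttpLKO). Kif5c, a kinesin motor gene, rose 21.2-fold, Erich4, which encodes a glutamate-rich protein, 22.75-fold, Miox, which opens the ring of inositol, 10.9-fold, and Igdcc4, an immunoglobulin-superfamily gene, 8.25-fold. Their edgeR adjusted p were 0.0124, 0.00448, 0.0316 and 0.0124, all had a mean of 4.41 CPM or less in DKO, and the adjusted p against MttpLKO ran from 0.290 to 0.670. Col4a3, a chain of basement membrane collagen, rose 4.54-fold and Fhl3, a LIM domain gene, 4.85-fold (edgeR adjusted p = 0.00488 and 0.0342). Single omissions of control replicate 2 or 3 raised the adjusted p to 0.0864 for Kif5c and Igdcc4, 0.225 for Miox, 0.0537 for Col4a3 and 0.228 for Fhl3. Kif5c was under 0.5 CPM in every control, so whether its call depends on a single DKO pool was not tested.

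Among falls in genes with a mean of at least 1 CPM and a symbol that is not a gene model name, Rpl34 had the largest after the targets. Rpl34, a protein of the large ribosomal subunit with near-identical copies elsewhere in the genome, read 55.8, 58.7 and 64.5 CPM in control, 4.40, 7.17 and 5.43 CPM in MttpLKO, and 4.68, 5.55 and 4.77 CPM in DKO. Both Mttp-deleted genotypes sat at a like low level, and Rpl34 fell 11.9-fold in DKO, a log2 fold change of -3.58 with an SE of 0.17 (edgeR adjusted p = 2.87e-06, and 0.790 against MttpLKO). Reads can be split between the copies, so this level is uncertain. Slco1a4, an organic anion transporter of the hepatocyte membrane, read 34.0, 64.7 and 59.8 CPM in control, 64.4, 74.0 and 29.9 CPM in MttpLKO, and 13.03, 12.7 and 5.97 CPM in DKO. It was below both other genotypes in every DKO pool and fell 4.999-fold (edgeR adjusted p = 0.0391, and 0.0252 against MttpLKO). Hamp2, a paralogue of the iron hormone gene Hamp, read 12.8, 24.0 and 18.0 CPM in control and 4.07, 5.04 and 1.56 CPM in DKO, and fell 5.11-fold (edgeR adjusted p = 0.0459). Hamp itself, given for comparison after its values were seen, had a log2 fold change of -0.16 ± 0.20 SE (edgeR adjusted p = 0.824). Hamp and Hamp2 are close in sequence, so the split of reads between them is uncertain.

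Smaller falls were seen in Crygn, a crystallin gene, Fkbp14, a prolyl isomerase that assists collagen folding in the ER, Slc20a1, a phosphate transporter, and Abca8b, an ATP-binding cassette transporter. Crygn fell 2.28-fold from control, and its MttpLKO libraries, at 1.02 to 1.404 CPM, lay below the DKO range of 3.01 to 3.70 CPM (edgeR adjusted p = 0.0391, and 0.0215 for DKO above MttpLKO). Fkbp14 fell 2.08-fold (edgeR adjusted p = 0.0479), Slc20a1 1.64-fold (0.0144) and Abca8b 1.51-fold (0.0499). Abca8b was at 34.3 to 35.9 CPM in control, 36.8 to 45.2 CPM in MttpLKO and 22.8 to 24.5 CPM in DKO, and its adjusted p against MttpLKO was 0.0122. The falls with higher p were lost without a control: leaving out control replicate 2 gave an edgeR adjusted p of 0.176 for Slco1a4, 0.232 for Hamp2, 0.263 for Fkbp14 and 0.263 for Abca8b, and leaving out control replicate 3 gave 0.234 for Crygn and 0.0864 for Slc20a1.

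**Figure D2:**
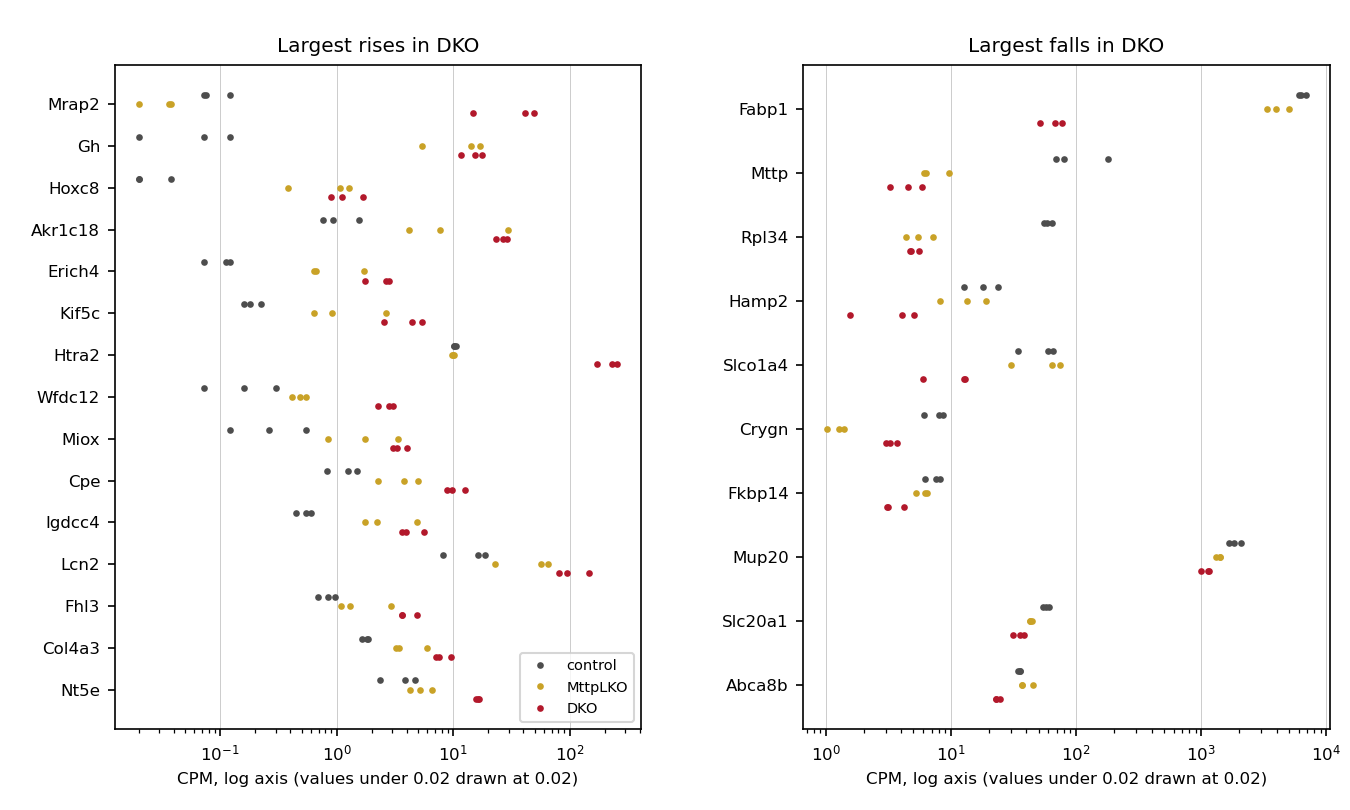
CPM on a log axis (horizontal) of the 15 largest rises (left) and the 10 falls, Fabp1 and Mttp included (right), among called genes that met the naming rule, 1 dot per library and 1 colour per genotype; values under 0.02 are drawn at 0.02. Mrap2, Htra2 and Wfdc12 separate DKO from both other genotypes, while in Gh, Hoxc8 and Rpl34 the MttpLKO dots lie with the DKO dots.

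Chromosome 9 held 9 of the 50, from 753 tested genes (1.20%, against 0.36% over all chromosomes). A stretch of 4.67 Mb, 83925145 to 88599516 in the deposited coordinates, held 6 of them among 19 tested genes: Bckdhb, Mrap2, Cep162, Nt5e and Zfp949 were higher and the unnamed transcript gene 9430037G07Rik was lower. Mrap2 (87144306 to 87184045) and Cep162 (87189577 to 87255536), a centrosome gene, are neighbours. Cep162 read 4.44, 5.82 and 6.09 CPM in control and 16.4, 9.82 and 15.7 CPM in DKO, a 2.56-fold rise (edgeR adjusted p = 0.0306, 0.164 without control replicate 2, and 0.0154 against MttpLKO). DKO replicate 2 was the lowest DKO pool for both Mrap2 and Cep162. The transcript gene 9430037G07Rik held 53 counts in control, 130 in MttpLKO and 0 in all 3 DKO libraries, so it was at least 15.7-fold lower against a floor of 3 counts over the group (edgeR adjusted p = 0.0124, and 0.0716 without DKO replicate 3). Cep162 and 9430037G07Rik were chosen after their values were seen.

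No called gene other than the target lay within 5 Mb of Fabp1 (chromosome 6, 71199827 to 71205023), where 44 genes were tested. Htra2 lies 11.9 Mb and Fkbp14 16.6 Mb from it on the same chromosome. Near Mttp (chromosome 3, 138089855 to 138143388), none of 40 tested genes within 5 Mb was called, and Rpl34 (130726831 to 130730398) lies 7.4 Mb away. A pair of neighbouring transcripts on chromosome 5, Gm15446 and 1010001B22Rik, chosen for their position, both fell (edgeR adjusted p = 0.0155 and 0.0124). Without DKO replicate 1 the edgeR adjusted p of Gm15446 was 0.107, and without DKO replicate 3 that of 1010001B22Rik was 0.0731. The DNA around these genes was not examined here.

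Most genes of ER protein folding read higher in DKO than in control. The ER folds and checks secreted proteins with chaperones of the Hsp70, Hsp90 and disulfide isomerase families, and its stress sensors raise these chaperones through short promoter elements. Of 28 tested genes of ER chaperones and the unfolded protein response, 25 had a positive log2 fold change, 18 were higher at an unadjusted p under 0.05 and none lower, and 2 were called higher. Their median log2 fold change was 0.47, beside 0.011 over all genes. Summed over the list, control libraries held 4895, 4274 and 4131 CPM, MttpLKO 4850, 4769 and 5577 CPM, and DKO 6921, 5347 and 6268 CPM. The DKO and control sums did not overlap, and DKO replicate 2 fell below MttpLKO replicate 3.

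The called members were Derl3 and Dnajb11. Derl3, which draws misfolded proteins out of the ER for degradation, read 4.44, 4.02 and 4.58 CPM in control, 6.26, 5.67 and 6.62 CPM in MttpLKO, and 25.2, 7.75 and 20.8 CPM in DKO. All DKO pools exceeded all others, with replicate 2 close to MttpLKO, and Derl3 rose 4.12-fold, 2.04 on the log2 scale with an SE of 0.34 (edgeR adjusted p = 0.0391, and 0.124 against MttpLKO). Dnajb11, an ER co-chaperone of the J-domain family, read 73.8, 63.7 and 62.3 CPM in control, 75.7, 77.6 and 88.9 CPM in MttpLKO, and 117, 92.6 and 115 CPM in DKO, and rose 1.63-fold (edgeR adjusted p = 0.0459, and 0.271 against MttpLKO). Neither call held in every setting: without control replicate 2 the adjusted p of Derl3 was 0.233, without control replicate 3 that of Dnajb11 was 0.287, and leaving out 1 library at a time gave 0 to 4 called members of the list.

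Other chaperones, chosen with their values known, did not pass the test. Hspa5, the main ER Hsp70 (also BiP), read 418, 307 and 304 CPM in control, 464, 483 and 617 CPM in MttpLKO, and 742, 479 and 585 CPM in DKO (log2 fold change 0.81 ± 0.19 SE, edgeR adjusted p = 0.130). Its DKO pools were above all controls but overlapped MttpLKO. The disulfide isomerases Pdia6, Pdia4 and Pdia3 had log2 fold changes of 0.67, 0.77 and 0.62 (edgeR adjusted p = 0.0714, 0.106 and 0.119), and the ER chaperones Hyou1 and Hsp90b1 0.94 and 0.64 (0.100 and 0.138). Calr and Canx, the lectin chaperones of glycoprotein folding, had 0.51 and 0.40 (0.248 and 0.360). The ATF4 and integrated stress list, the translational arm of the same response, had 14 of 28 tested members positive and none called. At an unadjusted p under 0.05, 4 were higher and 2 lower, and the median lay between -0.042 and 0.079 over all alternatives. Its 2 members with the smallest p moved in opposite directions. Asns, asparagine synthetase, read 4.25 to 9.38 CPM in control, 21.45 to 43.3 CPM in MttpLKO and 15.5 to 34.0 CPM in DKO. Its log2 fold change was 1.92 ± 0.38 SE (edgeR adjusted p = 0.0837, and 0.786 against MttpLKO). Every DKO pool was above every control pool for Asns. Gdf15, a hormone gene, had -1.07 (edgeR adjusted p = 0.300).

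**Figure D3:**
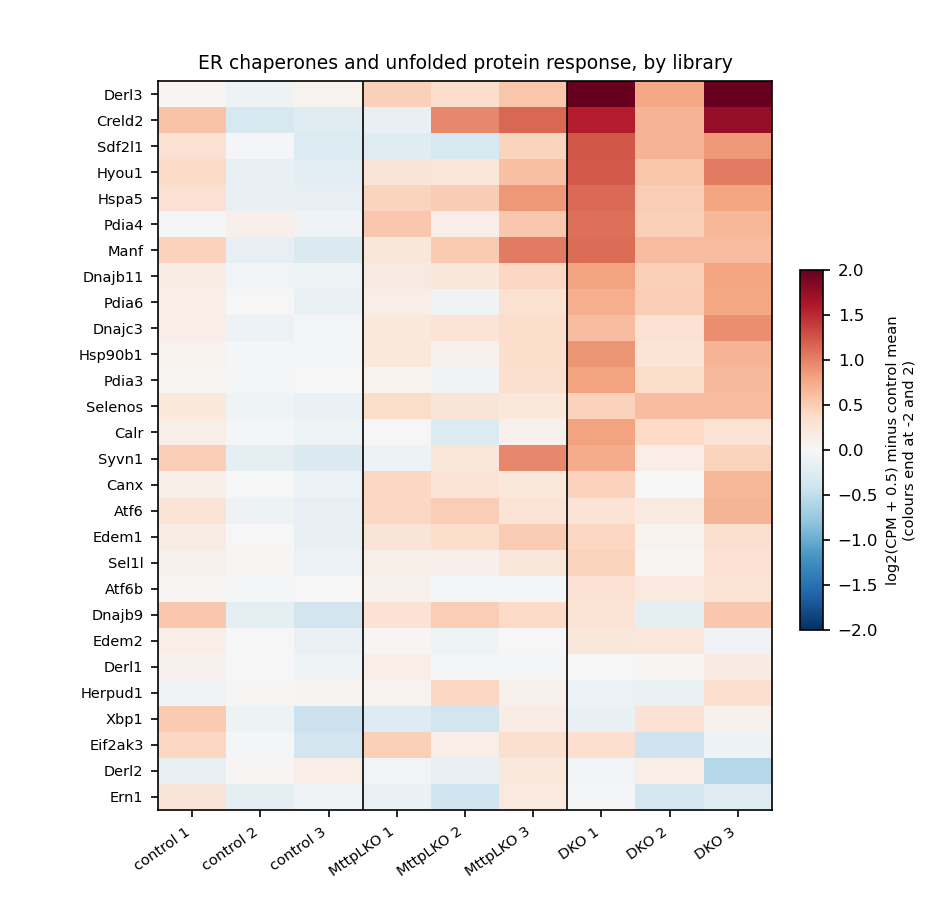
Each row is 1 of the 28 tested genes of ER chaperones and the unfolded protein response, each column 1 library; colour is log2(CPM + 0.5) minus the control mean of that gene, and colours end at -2 and 2. Derl3, Creld2 and Hyou1 are darkest in DKO replicates 1 and 3, DKO replicate 2 is paler, and the MttpLKO columns lie between control and DKO for many rows.

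Promoters were searched because the ER stress response element is a known feature of such chaperone genes. The ER stress response element (ERSE) was searched as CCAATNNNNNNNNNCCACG and its second form (ERSE-II) as ATTGGNCCACG, on both strands, in RefSeq promoters (GRCm38.p6, 250 bases before to 50 after each start). No gene held both. An ERSE was found in 37 of 27025 genes with a promoter entry (0.137%) and in 10 of 26 genes of the ER list (38.5%), and an ERSE-II in 12 (0.0444%) and 2 (7.69%). The sequences below belong to both called genes and to 4 further list members chosen with their values known, in the gene's direction, with the fixed letters of the match in capitals; where the match reads on the opposite strand, its reverse complement is what stands in capitals. They lie at chr10:75893212-75893290 (Derl3, + strand), chr16:22857843-22857871 (Dnajb11, +), chr12:17266461-17266539 (Pdia6, +), chr2:34771995-34772073 (Hspa5, +), chr15:88819490-88819568 (Creld2, +) and chr8:84847045-84847123 (Calr, - strand).
Derl3: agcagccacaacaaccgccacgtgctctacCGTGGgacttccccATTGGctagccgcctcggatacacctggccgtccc
Dnajb11: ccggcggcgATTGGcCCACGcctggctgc
Pdia6: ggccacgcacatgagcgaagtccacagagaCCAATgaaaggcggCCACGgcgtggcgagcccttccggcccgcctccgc
Hspa5: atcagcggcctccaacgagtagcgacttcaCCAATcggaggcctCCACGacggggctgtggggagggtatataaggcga
Creld2: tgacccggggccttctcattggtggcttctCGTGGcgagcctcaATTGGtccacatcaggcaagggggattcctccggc
Calr: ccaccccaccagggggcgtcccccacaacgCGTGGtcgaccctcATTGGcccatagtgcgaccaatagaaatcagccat

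The Derl3 match runs from 156 to 138 bases before the start and that of Hspa5 from 65 to 47, while the Dnajb11 match lies at bases 8 to 18 of the transcript. The 11 tested ER list genes with either element all had a positive log2 fold change, 9 at an unadjusted p under 0.05, with a median of 0.64. The 13 tested list genes with a promoter entry and no match had 10 positive values, 6 of them at an unadjusted p under 0.05, and a median of 0.26. Outside the list, 15 tested genes with either element had 9 positive values and a median of 0.03, with 1 higher and 1 lower at an unadjusted p under 0.05. No binding of a factor was measured.

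Most genes of fatty acid use had positive fold changes, with no member called. PPARalpha is the nuclear receptor that senses fatty acids in hepatocytes and turns on oxidation enzymes. Of 34 tested genes of fatty acid oxidation and ketogenesis, 31 had a positive log2 fold change, 11 were higher and none lower at an unadjusted p under 0.05, and the median was 0.21. Crat, carnitine acetyltransferase, read 38.5, 57.0 and 60.3 CPM in control, 70.8, 77.1 and 55.3 CPM in MttpLKO, and 82.04, 96.0 and 119 CPM in DKO (log2 fold change 0.93 ± 0.19 SE, edgeR adjusted p = 0.0926). Ehhadh, a peroxisomal oxidation enzyme, read 211, 220 and 238 CPM in control and 303, 394 and 461 CPM in DKO (0.79 ± 0.16 SE, edgeR adjusted p = 0.0888). In both genes every DKO pool was above every control pool, and the test was not passed.

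Among 33 tested PPARalpha targets outside oxidation, 24 were positive, with 14 higher and 2 lower at an unadjusted p under 0.05. The median was 0.41, or 0.27 without DKO replicate 3. Summed over the list, control libraries held 3442, 4659 and 5367 CPM, MttpLKO 5219, 6164 and 4231 CPM, and DKO 5206, 7201 and 7856 CPM. The DKO and control sums overlapped. Aldh3a2, a fatty aldehyde dehydrogenase, and Ucp2, a mitochondrial carrier, had the smallest p, with log2 fold changes of 0.64 and 0.89 (edgeR adjusted p = 0.166 and 0.191). The Cyp4a fatty acid hydroxylases were chosen with their values known. Cyp4a14 read 170, 486 and 946 CPM in control, 913, 1456 and 789 CPM in MttpLKO, and 839, 1556 and 2042 CPM in DKO (log2 fold change 1.47 ± 0.52 SE, edgeR adjusted p = 0.317). Its controls alone spanned more than 5-fold, and DKO overlapped both other genotypes. The acyl-CoA thioesterases Acot1, Acot2 and Acot3 had log2 fold changes of 1.36, 1.02 and 1.20 (edgeR adjusted p = 0.206, 0.209 and 0.198). The hormone genes Fgf21 and Gdf15 went the other way, at -1.42 and -1.07 (0.316 and 0.300), and Ppara itself had -0.04 (0.940).

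**Figure D4:**
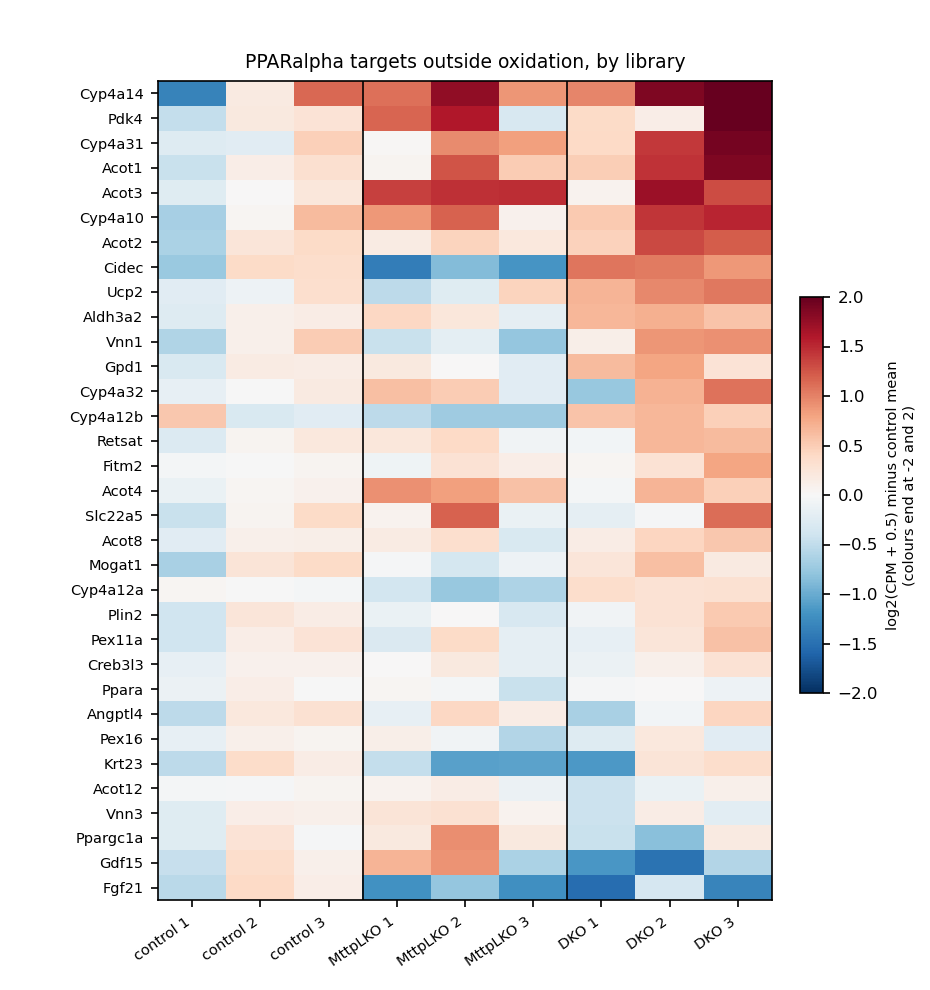
Rows are the 33 tested PPARalpha targets outside oxidation and columns the 9 libraries; colour is log2(CPM + 0.5) minus the control mean of the gene, and colours end at -2 and 2. Cyp4a31, Cyp4a10 and Acot1 are darkest in DKO replicates 2 and 3 and paler in DKO replicate 1, and control replicate 1 is the bluest control column.

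Among genes of lipid synthesis and export, only the targets were called. In the fatty acid synthesis list 10 of 27 tested genes were positive, none called, with 2 higher and 4 lower at an unadjusted p under 0.05 and a median of -0.15, or -0.092 without DKO replicate 3. Me1, the cytosolic malic enzyme that supplies NADPH, read 91.3, 83.7 and 77.4 CPM in control, 105, 92.0 and 94.3 CPM in MttpLKO, and 62.9, 56.9 and 53.1 CPM in DKO. It was lowest in DKO, with a log2 fold change of -0.55 ± 0.11 SE (edgeR adjusted p = 0.0752, and 0.0138 against MttpLKO). Me1 lies at 86581371 to 86695953 on chromosome 9, inside the stretch of called genes described above. Whether its lower level belongs with that stretch or with lipid synthesis was not tested. The VLDL assembly list had 1 called gene of 23 tested, Mttp itself, and Apob, the structural protein of VLDL, had a log2 fold change of 0.16 ± 0.15 SE (edgeR adjusted p = 0.740; named for its role). Among 30 tested genes of fatty acid binding, uptake and activation, Fabp1 was the called gene, and the next smallest p was that of Slc27a4, a fatty acid transporter, at 0.31 (edgeR adjusted p = 0.300).

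Cidec had the smallest p of the tested lipid droplet genes. Cidec, which enlarges lipid droplets by fusing them, read 8.69, 19.5 and 19 CPM in control, 5.35, 7.86 and 6.28 CPM in MttpLKO, and 31.6, 31.1 and 27.5 CPM in DKO. MttpLKO lay below and DKO above the controls. The log2 fold change of DKO over control was 0.93 ± 0.26 SE and did not pass the test (edgeR adjusted p = 0.209). MttpLKO against control, from the same fit, did not pass it either (edgeR adjusted p = 0.132). DKO was higher than MttpLKO (edgeR adjusted p = 0.00726). In the DKO against MttpLKO contrast 0.389% of genes were called. Cidea, its relative, read 1.45, 4.50 and 3.50 CPM in control, 1.02, 0.439 and 0.558 CPM in MttpLKO, and 9.77, 16.6 and 2.32 CPM in DKO (edgeR adjusted p = 0.340, and 0.0515 against MttpLKO). None of the 18 tested lipid droplet genes was called against control, and their median lay between 0.016 and 0.16 over all alternatives. Cidec and Cidea are also adipocyte markers, and the part of such cells in their values was not tested.

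Most markers of liver tumours and of fetal liver read higher in DKO than in control, and MttpLKO was raised as well. Summed over the list, control libraries held 1886, 1979 and 2012 CPM, MttpLKO 2592, 2699 and 1903 CPM, and DKO 2226, 2211 and 2250 CPM. The mean over members of log2(CPM + 0.5) minus the control mean was 0.245, 0.427 and 0.903 in MttpLKO. In DKO it was 0.786, 0.636 and 0.615. Of 41 tested markers, 34 had a positive log2 fold change, 14 were higher and none lower at an unadjusted p under 0.05, 3 were called higher, and the median was 0.53, or 0.33 without DKO replicate 1. The called members were Akr1c18, described above, Lcn2 and Gpc3. Lcn2, lipocalin 2, which binds bacterial siderophores and is also an acute phase protein, read 8.12, 16.2 and 18.6 CPM in control, 23.0, 56.6 and 64.7 CPM in MttpLKO, and 94.6, 81.6 and 145 CPM in DKO. The 3 genotypes did not overlap, and Lcn2 rose 7.47-fold over control (edgeR adjusted p = 0.0148, 0.0869 without control replicate 2, and 0.354 against MttpLKO). Gpc3, the oncofetal proteoglycan glypican 3, read 2.18, 3.30 and 2.96 CPM in control, 4.44, 6.84 and 12.6 CPM in MttpLKO, and 12.1, 10.9 and 9.22 CPM in DKO. It rose 3.80-fold over control (edgeR adjusted p = 0.0457, 0.228 without control replicate 3, and 0.722 against MttpLKO), with MttpLKO replicate 3 above the DKO range.

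Other members did not pass the test. Myc read 15.8, 9.83 and 9.63 CPM in control, 25.7, 24.3 and 33.6 CPM in MttpLKO, and 24.2, 59.0 and 30.9 CPM in DKO. Its log2 fold change over control was 1.69 (SE 0.32, edgeR adjusted p = 0.0596, and 0.697 against MttpLKO). Tff3 and Ly6d, chosen with their values known, had 2.33 and 2.30 (edgeR adjusted p = 0.103 and 0.0888). Leaving out single libraries gave 0 to 8 called members of the list, with 8 without MttpLKO replicate 3, 0 without any single control and 0 without DKO replicate 1 or 3. That MttpLKO library entered only the shared estimate of the spread and the scaling of library sizes. Cell cycle genes were positive in 28 of 38 tested members with none called and a median of 0.27. At an unadjusted p under 0.05, 2 were higher (5.26%) and none lower. Extracellular matrix genes were positive in 36 of 41, none of the list called, with 1 higher at an unadjusted p under 0.05 (2.44%). Their median was 0.23, or 0.15 without DKO replicate 1. Both shares lay below the 6.75% of all tested genes that were higher at that p.

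Acute phase genes varied widely between the DKO pools. Of 32 tested members, 27 were positive, 11 were higher and none lower at an unadjusted p under 0.05, 1 was called (Lcn2), and the median was 0.38, or 0.094 without DKO replicate 3. Saa2, serum amyloid A2, read 22.1, 20.2 and 22.2 CPM in control, 12.9, 35.7 and 18.1 CPM in MttpLKO, and 254, 12.4 and 470 CPM in DKO. Saa1 followed the same order, with 538, 46.5 and 735 CPM in the DKO pools against 52.7 to 64.3 CPM in control. DKO replicates 1 and 3 were far above control and replicate 2 was below it for both genes, so the genotypes overlapped (log2 fold change 3.51 ± 0.90 SE for Saa2 and 2.94 ± 0.78 SE for Saa1, edgeR adjusted p = 0.178 and 0.191). Il1rn, the interleukin 1 receptor antagonist, read 1.90, 3.38 and 2.02 CPM in control and 7.29, 4.87 and 12.7 CPM in DKO (edgeR adjusted p = 0.0967).

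Sex-biased liver genes, which follow the pattern of growth hormone secretion, were examined beside Gh. Of 35 tested male-biased genes, 23 were positive, 10 were higher and 5 lower at an unadjusted p under 0.05, and 1 was called lower. The called gene was Mup20, a male-specific major urinary protein that carries pheromones. Mup20 read 2092, 1654 and 1838 CPM in control, 1320, 1419 and 1403 CPM in MttpLKO, and 1158, 1134 and 990 CPM in DKO, and fell 1.70-fold (edgeR adjusted p = 0.0316, and 0.134 without control replicate 3). Other Mup genes, which are near-identical copies among which reads may be split, did not pass the test and had both signs. Mup17 had a log2 fold change of 0.94 (edgeR adjusted p = 0.353) and Mup9 1.16 (0.335), and for both DKO was above MttpLKO (edgeR adjusted p = 0.00917 and 0.00726). Mup9 read 22.1, 38.9 and 55.7 CPM in control, 5.43, 5.27 and 7.73 CPM in MttpLKO, and 36.1, 89.3 and 135 CPM in DKO, so MttpLKO was the low group and control and DKO overlapped. Mup3 had -0.42 (edgeR adjusted p = 0.316). Of 31 tested female-biased genes, 20 were positive and 2 were called in opposite directions, Lcn2 higher and Slco1a4 lower. At an unadjusted p under 0.05, 8 were higher and 4 lower, and the median was 0.32, or 0.083 without control replicate 1 and 0.20 without DKO replicate 3. Stat5a, a transducer of the growth hormone signal, read 14.1, 15.7 and 17.5 CPM in control, 15.1, 12.8 and 12.5 CPM in MttpLKO, and 21.9, 23.3 and 23.9 CPM in DKO (edgeR adjusted p = 0.116, and 0.0246 against MttpLKO).

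Detoxification and carbohydrate genes had more members lower than higher at an unadjusted p under 0.05, with none called. Of 48 tested P450 and conjugation enzymes, 20 were positive, 3 were higher and 11 lower at an unadjusted p under 0.05, and the median was -0.09, with -0.16 without DKO replicate 3 and 0.021 without DKO replicate 1. Cyp3a59, a drug-metabolizing P450, read 22.3, 31.1 and 22.2 CPM in control, 32.0, 16.8 and 10.2 CPM in MttpLKO, and 8.96, 10.5 and 8.55 CPM in DKO (log2 fold change -1.44 ± 0.34 SE, edgeR adjusted p = 0.130). Gstm2, a glutathione transferase, had -0.74 ± 0.18 SE (edgeR adjusted p = 0.150). DKO was below control in every pool for both. Among 41 tested genes of glycolysis, gluconeogenesis and glycogen, 2 were higher and 8 lower at an unadjusted p under 0.05, with Khk, fructokinase, at -0.53 and Slc37a4, the glucose 6-phosphate transporter, at -0.44 (edgeR adjusted p = 0.218 and 0.220). Interferon response genes were positive in 8 of 43 tested members, with 4 lower and none higher at an unadjusted p under 0.05 and a median of -0.19 (-0.067 without DKO replicate 3 and -0.31 without DKO replicate 1). Gbp3 and Ifit3, both induced by interferons, had -0.77 and -0.68 (edgeR adjusted p = 0.193 and 0.256). The bile acid list had Slco1a4 as its called gene, with 11 of 28 positive and a median between -0.14 and -0.041 over all alternatives.

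No listed marker of another cell type was called in DKO against control. For Kupffer cells, the resident liver macrophages, 12 of 15 tested markers were positive with none at an unadjusted p under 0.05, and their summed level was 441 to 570 CPM in control and 482 to 595.1 CPM in DKO. Of 12 tested B and plasma cell markers 9 were positive, with sums of 93.2 to 121 CPM in control and 94.3 to 187 CPM in DKO, while MttpLKO replicate 3 held 1116 CPM. Stellate cell markers were positive in 10 of 17 (447 to 480 CPM in control, 418 to 528 CPM in DKO), bile duct markers in 10 of 14 (2147 to 2531 and 2688 to 3259 CPM), sinusoidal endothelial markers in 11 of 20 (572 to 713 and 490 to 717 CPM) and recruited macrophage markers in 12 of 17 (360 to 388 and 456 to 461 CPM). Of 14 listed adipocyte markers 9 were tested. Of these 8 were positive, 3 at an unadjusted p under 0.05 and none lower, with sums of 6577 to 7165 CPM in control and 6791 to 7209 CPM in DKO. Cidec, Cidea, Cfd and Fabp4 had control means of 15.7, 3.15, 5.77 and 8.55 CPM, so the sums came mainly from other members. The mean over members of log2(CPM + 0.5) minus the control mean was -0.252, 0.15 and 0.102 in control. In DKO it was 0.467, 0.78 and -0.213. The adipocyte marker Cfd, the adipokine adipsin, read 4.28, 5.52 and 7.50 CPM in control and 11.8, 57.3 and 2.27 CPM in DKO (edgeR adjusted p = 0.359). T and NK cell markers were positive in 1 of 6 (6.24 to 10.95 and 3.74 to 9.47 CPM), and markers of pancreas, gut, muscle and blood in 2 of 8 (260.7 to 394.1 and 208.2 to 320.4 CPM). The recruited macrophage and bile duct sums did not overlap between DKO and control, but each was carried mainly by a single gene. Clu had a mean of 2179 CPM in control and 2784 CPM in DKO within the bile duct sum. Ctsd had 264 and 324 CPM within the recruited macrophage sum. The duct marker Krt19 read 3.64 to 4.65 CPM in control and 3.58 to 5.34 CPM in DKO. Prom1, with the smallest p of the duct list, had a log2 fold change of 1.49 (edgeR adjusted p = 0.212). Cd63, with that of the recruited macrophage list, had 1.25 (0.2365). For both, every DKO pool was above every control pool. At an unadjusted p under 0.05, 3 duct markers (21.4%) and 2 recruited macrophage markers (11.8%) were higher and none lower, beside 6.75% of all tested genes higher. The part of the listed cell types in the tumour marker, matrix and acute phase values was not tested. Hepatocyte genes were positive in 15 of 26, with none called. Ttr, the transthyretin gene, had the smallest p of them, at 11630 ± 331 CPM in control and 7864 ± 1394 CPM in DKO (SD, n = 3; log2 fold change -0.56 ± 0.14 SE, edgeR adjusted p = 0.152).

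**Figure D5:**
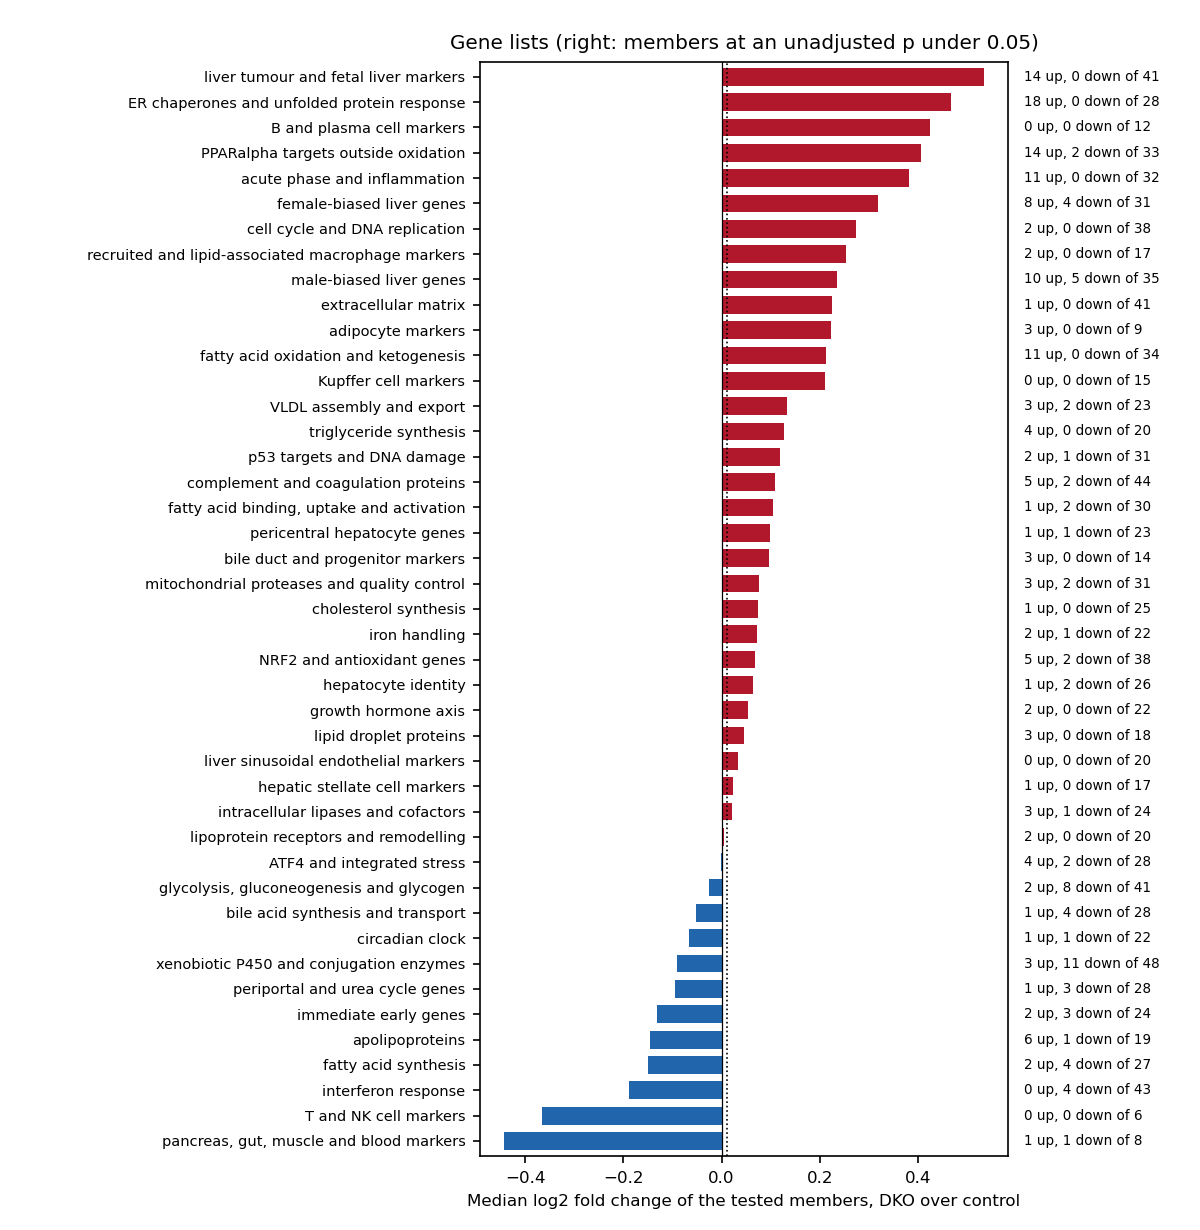
Bars give the median log2 fold change, DKO over control, of the tested members of each of the 43 gene lists, and the dotted line marks the median of all genes, 0.011; numbers at the right count members at an unadjusted p under 0.05 in each direction. The tumour and fetal list (0.53) and the ER chaperone list (0.47) have the highest medians, and the ER list has 18 higher and 0 lower of 28.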

How the data were processed

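Each of the 9 deposited tables holds raw read counts for 41388 genes, per the file headers. CPM and RPKM columns computed by the authors stand beside them, per the file headers, and were checked against the counts and not tested. Per the submitters' processing notes, which give no roles, the tools were STAR 2.0.4b, Subread and featureCounts 1.4.5. The sources used here do not give the genome build, annotation, strand setting or treatment of multi-matching reads. Polyadenylated RNA was selected with oligo(dT), per the labels' protocols. Symbols were matched by gene ID for 40254 of 41388 genes (97.26%). Coordinates are those of the deposited tables.

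Genes at 0.5 CPM or more in 3 of the 6 compared libraries were tested with edgeR 4.0.16 (R 4.3.3): quasi-likelihood F test, 1 fit of 3 genotype means over 9 libraries, TMM scaling, Benjamini-Hochberg adjustment over 13872 genes, threshold 0.05. This left 373 genes between 0.5 and 0.6 CPM in their third-highest library, with 441 just outside between 0.4 and 0.5. edgeR estimated a common dispersion of 0.0325, or a coefficient of variation of 18%. Printed CPM use TMM-scaled library sizes. Each SE was derived from a log2 fold change and its F value. Intervals on count ratios are exact at 95.0% and cover counting error only. P-values measure the spread between pools of 3 mice, which is smaller than that between mice. The code was tested on simulated data. No pair of libraries looked like a repeat deposit.

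Alternatives were other scalings and filters, DESeq2 1.42.0, limma-voom (limma 3.58.1), the 6 libraries alone, removal of the 20 most abundant genes, a replicate block, and leaving out each library. The 43 gene lists are described by counts and medians, with no test of a list. Members and lists were chosen with earlier results of these data known. Named genes were Mttp and Fabp1; the 15 largest rises and up to 15 largest falls among called genes with a symbol, a mean of at least 1 CPM and no overlap; up to 6 called genes per list, or the 2 with the smallest p; the first 3 tested markers of each cell type; and members of a called family. Any other gene is said to be chosen otherwise. Promoter sequences are from RefSeq (GRCm38.p6), for 27025 genes, of which 10461 were tested.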

Additional observations from a re-analysis of the deposited data

How the results depend on the processing

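Fabp1 and Mttp were called with the same direction in every alternative. The 50 called genes became 201 (149 higher, 52 lower) without a filter on low counts, 260 (175 higher, 85 lower) with DESeq2, and 77 (60 higher) with the 6 compared libraries alone; 50, 50 and 43 of the original calls were among them. The causes of the differences between tools were not tested. Leaving out 1 library gave 10 to 94 calls, 7 to 73 higher and 3 to 21 lower. Each omission of a control (18, 14 and 14 calls), of DKO replicate 1 (12) or 3 (10), or of MttpLKO replicate 3 (94) moved the count by more than 1.5 times. Fewer libraries per genotype enter such a fit, and 12 called genes of low level in control or DKO passed the filter in only 16 of 19 alternatives. DESeq2 called 11 ER chaperone genes and 9 tumour markers higher, limma-voom 0 and 1.

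With the replicate number as a replicate block, 40 genes were called, 31 higher and 9 lower, and 34 of the 50 remained. Same-numbered control and DKO libraries correlated at 0.079, -0.014 and 0.086. Control replicates 1 and 3 correlated best with the DKO library of the same number, and control replicate 2 with DKO replicate 1 (0.023). All these correlations were weak, so they do not settle whether the numbers pair the samples. Signs turned for 3 uncalled Mup genes when 1 library was left out: Mup12 ran from -0.32 to 0.16 (positive without DKO replicate 1), Mup10 from -0.22 to 0.34 and Mup7 from -0.24 to 0.37 (negative without DKO replicate 3). At these depths genes under 0.5 CPM in more than 3 of the 6 libraries were not tested.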
